A study of Homo sapiens with 12 samples.

Results

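The genes described here are 10 core genes of the circadian clock: the repressors PER1, PER2, PER3, CRY1 and CRY2, the activators ARNTL (also called BMAL1) and CLOCK, the nuclear receptors NR1D1 and NR1D2, and the output factor DBP. They were taken by symbol from the 23583 features of the deposited count table, and all 10 were found there. All 10 were among the 16946 features that passed the filter on low counts. RNA sequencing had been done in HCCLM3 and Huh7, established human hepatocellular carcinoma cell lines, each given an siRNA against the circular RNA circASH2 (si-circASH2) or a control siRNA (si-NC). The 4 groups of 3 libraries were HCCLM3 si-circASH2, HCCLM3 si-NC, Huh7 si-circASH2 and Huh7 si-NC, and no other treatment is named in the labels. The stated purpose was to learn what loss of circASH2 does in the spread of liver cancer. The circular RNA itself was not measured here, so its silencing was not checked.

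The mammalian clock is a loop of transcription and repression. ARNTL pairs with CLOCK and binds E-boxes to switch on the PER, CRY, NR1D1, NR1D2 and DBP genes, and PER and CRY proteins then return to the nucleus and block that pair. NR1D1 and NR1D2 (REV-ERB alpha and beta) repress ARNTL through elements that the ROR receptors use to activate it, and DBP acts on D-boxes of further genes. In liver the loop drives daily rhythms of metabolic genes. The labels give neither the time of harvest nor any synchronisation of the cultures, so each library reports 1 level and no rhythm.

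Total counts lay between 29006781 and 30858895 per library, and 3 counts in 1 library were worth between 0.0981 and 0.105 CPM (counts scaled to library size with TMM factors). The clock genes had between 25 and 2143 counts in a library. Separate cultures are not named for the 3 libraries within a group, and p-values thus cover only library-to-library spread, which can be technical. A level is given with its SD over 3 libraries, and a log2 fold change with the model's standard error. A gene was called at an edgeR adjusted p under 0.05 over all 16946 tested features. In an exact two-sided permutation test of 3 against 3 libraries p cannot go below 0.1, the value reached by every pair of groups that do not overlap. The 8 hepatocyte markers summed to between 155 and 167 CPM in HCCLM3 libraries against 31900 to 34700 CPM in Huh7 libraries. Of the 8 markers SERPINA1 was at 0 counts in 4 of 6 HCCLM3 libraries and at 2 counts in the others, and the other markers had counts in every library. Albumin, the defining one, averaged 3.24 CPM in HCCLM3 si-NC against 9870 CPM in Huh7 si-NC libraries. The markers were not lowered alike, and most of the HCCLM3 sum came from HNF4A and APOB. HNF4A averaged 94.9 CPM in HCCLM3 si-NC against 242 CPM in Huh7 si-NC libraries, and APOB 52 against 8450 CPM.

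With control siRNA most of the clock genes differed between the lines, as did most tested features. ARNTL, CLOCK, PER3, NR1D1 and NR1D2 were higher in HCCLM3, and PER1, PER2, CRY1 and CRY2 lower. Of the 10 clock genes 5 were higher and 4 lower in HCCLM3 si-NC than in Huh7 si-NC libraries. Over all tested features 41.6% were higher and 43.6% lower, so a difference at this threshold was the usual case. The median absolute log2 difference of the clock genes was 1.65, beside 0.96 over all tested features. In bulk libraries, fewer cells with a transcript and less of it per cell cannot be told apart. The part of the hepatocyte markers in these differences was not tested.

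PER2, a repressor whose turnover sets the pace of the loop, had 1.68, 1.65 and 1.21 CPM in the HCCLM3 si-NC libraries, against 46.8, 49.1 and 41.1 CPM in the Huh7 si-NC libraries. The groups lay far apart, and the level was 30.2-fold lower in HCCLM3 (log2 difference -4.92 ± 0.13, edgeR adjusted p = 4.31e-19). PER1, a repressor that hormones and cyclic AMP induce, averaged 6.63 ± 0.163 CPM in HCCLM3 si-NC and 27.3 ± 0.627 CPM in Huh7 si-NC libraries, 4.11-fold lower in HCCLM3 (edgeR adjusted p = 4.4e-15). PER3, a further PER repressor, went the other way, with 5.09 ± 0.259 CPM in HCCLM3 si-NC and 1.53 ± 0.533 CPM in Huh7 si-NC libraries, 3.32-fold higher in HCCLM3 (edgeR adjusted p = 2.96e-08). Over 20 alternatives its log2 difference ranged from 0.51 to 2.02 and the call held. UTS2, which overlaps PER3 on the opposite strand, had 8 to 22 counts in HCCLM3 si-NC and 0 in Huh7 si-NC libraries. The part of UTS2 in the PER3 count was not tested. The cryptochrome repressors CRY1 and CRY2 were lower in HCCLM3 by nearly the same amount, with a log2 difference of -1.64 ± 0.07 for CRY1 (edgeR adjusted p = 3.2e-16) and -1.66 ± 0.08 for CRY2 (edgeR adjusted p = 1.22e-15).

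ARNTL had 16.8, 16.7 and 13.9 CPM in the HCCLM3 si-NC libraries, against 3.71, 3.27 and 3.77 CPM in the Huh7 si-NC libraries. All HCCLM3 libraries lay above all Huh7 libraries, 4.4-fold higher by the model (log2 difference 2.14 ± 0.11, edgeR adjusted p = 7.4e-15). Its partner CLOCK was 1.94-fold higher in HCCLM3 (log2 difference 0.96 ± 0.07, edgeR adjusted p = 3.63e-12). NR1D1 was 2.27-fold higher (1.18 ± 0.09, edgeR adjusted p = 2.98e-11), while its paralogue NR1D2 differed by only 1.13-fold (0.18 ± 0.05, edgeR adjusted p = 0.00449). DBP, at 3.81 ± 0.475 CPM in HCCLM3 si-NC and 4.07 ± 0.905 CPM in Huh7 si-NC libraries, did not pass the test and its libraries overlapped.

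**Figure D1:**
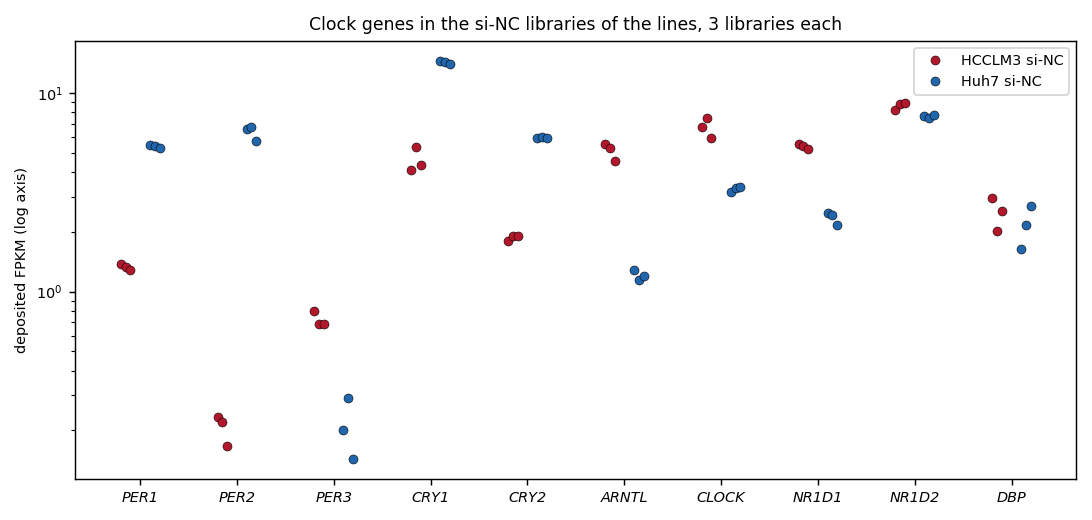
Deposited FPKM of the 10 clock genes on a log axis in the si-NC libraries, 3 points per gene and line, HCCLM3 left of Huh7. The PER2 points of HCCLM3 average 0.208 FPKM and those of Huh7 6.35 FPKM, while the DBP points of the lines overlap.

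Levels of different genes were compared on the deposited FPKM, which are scaled for transcript length. In HCCLM3 si-NC libraries the order ran from NR1D2 (8.63 ± 0.344 FPKM) through CLOCK, NR1D1, ARNTL, CRY1, DBP, CRY2, PER1 and PER3 to PER2 (0.208 ± 0.0345 FPKM). In Huh7 si-NC libraries it ran from CRY1 (14.3 ± 0.282 FPKM) through NR1D2, PER2, CRY2, PER1, CLOCK, NR1D1, DBP and ARNTL to PER3 (0.212 ± 0.0741 FPKM). Neighbours whose libraries overlapped were NR1D1 with ARNTL and ARNTL with CRY1 in HCCLM3, and PER2 with CRY2 and NR1D1 with DBP in Huh7. The PER gene with the lowest FPKM thus differed between the lines, PER2 in HCCLM3 and PER3 in Huh7.

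After si-circASH2 in Huh7 the 3 PER genes and CRY2 fell, and ARNTL and NR1D1 rose. Of the 10 clock genes 4 fell, 2 rose and 4 did not pass the test, where 15.1% of all tested features fell and 16.3% rose. Their median log2 fold change was -0.24, beside 0.01 over all tested features. The changes were moderate, between 1.29-fold and 1.69-fold for the called genes. Marker sums of other cell types also moved in Huh7. The 4 leukocyte markers summed to between 36.7 and 40.7 CPM in si-circASH2 against 20.5 to 21.4 CPM in si-NC libraries, nearly all of it CD68, while CD3E was at 0 in every library and PTPRC at no more than 3 counts. The 5 fibroblast markers summed to between 17.7 and 18.6 CPM in si-circASH2 against 10.8 to 13.1 CPM in si-NC libraries, with DCN at 0 in each. Within the fibroblast set COL1A1 did not rise (3.95 CPM in si-circASH2, 4.21 CPM in si-NC libraries). The hepatocyte markers summed to between 31900 and 32600 CPM in si-circASH2 against 34400 to 34700 CPM in si-NC libraries. Within the hepatocyte set TTR (583 against 452 CPM) and APOB (8760 against 8450 CPM) averaged higher in si-circASH2 libraries, and the other markers lower. The sum of the 4 endothelial markers, with KDR at 0, overlapped between the groups. Within the endothelial set VWF had 11 to 12 counts in si-circASH2 against 4 to 7 in si-NC libraries. PECAM1, which made up most of the sum, averaged 23.8 CPM in si-circASH2 against 26 CPM in si-NC libraries. The part of these marker sets in the clock gene changes was not tested.

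PER2 had 32.9, 31.5 and 31.9 CPM in the Huh7 si-circASH2 libraries, against 46.8, 49.1 and 41.1 CPM in the si-NC libraries. The groups did not overlap, and PER2 fell by 29.8% by the model (log2 fold change -0.51 ± 0.09, edgeR adjusted p = 0.000128). With limma on log2(FPKM + 0.1) the PER2 value was also -0.51 but its adjusted p was 0.0588, and 0.0741 over all features above 0. PER1 had 22.2, 17.4 and 21.2 CPM in the si-circASH2 libraries, against 27.2, 27.9 and 26.7 CPM in the si-NC libraries. All si-circASH2 libraries of PER1 lay below all si-NC libraries (log2 fold change -0.43 ± 0.09, edgeR adjusted p = 0.000833).

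PER3 was scarce in Huh7, with 0.847, 0.961 and 0.901 CPM in the si-circASH2 libraries, against 1.44, 2.1 and 1.05 CPM in the si-NC libraries. The groups did not overlap but the si-NC libraries were spread widely (log2 fold change -0.76 ± 0.24, edgeR adjusted p = 0.0174). Leaving out si-NC replicate 2 ended the PER3 call (log2 fold change -0.46, edgeR adjusted p = 0.17), as did leaving out si-circASH2 replicate 1 (-0.71, edgeR adjusted p = 0.0548). With limma on FPKM it was lost at each setting, at adjusted p between 0.0925 and 0.234. Of its 8099 exonic bases PER3 shares 868 with UTS2 on the opposite strand, and UTS2 had 0 counts in every Huh7 library.

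The cryptochromes did not move together in Huh7. CRY2 had 23.3, 21.2 and 20.8 CPM in the si-circASH2 libraries, against 28.1, 28.0 and 27.8 CPM in the si-NC libraries. All si-circASH2 libraries of CRY2 lay below the si-NC libraries, which agreed closely (log2 fold change -0.36 ± 0.07, edgeR adjusted p = 0.000382). CRY1 had 50.9, 56.5 and 53.9 CPM in the si-circASH2 libraries, against 48.9, 48.7 and 47.3 CPM in the si-NC libraries. The si-circASH2 libraries of CRY1 all lay higher, but the gene did not pass the test (log2 fold change 0.16 ± 0.07, edgeR adjusted p = 0.0762). It passed with upper quartile factors (0.0483), with Huh7 fitted alone (0.0442) and without HCCLM3 si-NC replicate 2 (0.0319), all as edgeR adjusted p.

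Of the activators, ARNTL had 4.64, 4.37 and 5.07 CPM in the Huh7 si-circASH2 libraries, against 3.71, 3.27 and 3.77 CPM in the si-NC libraries. The groups did not overlap, and ARNTL rose by 30.9% by the model (log2 fold change 0.39 ± 0.12, edgeR adjusted p = 0.0173). Leaving out si-NC replicate 2 ended the ARNTL call (edgeR adjusted p = 0.0815), as did leaving out si-circASH2 replicate 3 (0.0788) or fitting Huh7 by itself (0.0526). With limma it was lost on log2(FPKM + 1) (0.0626) and over all features above 0 (0.0575). CLOCK averaged 33.6 ± 2.6 CPM in si-circASH2 and 35.6 ± 1.25 CPM in si-NC libraries, with overlapping groups and no call (edgeR adjusted p = 0.391).

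Of the REV-ERB receptors, NR1D1 had 10.8, 8.65 and 9.18 CPM in the Huh7 si-circASH2 libraries, against 7.77, 7.71 and 6.72 CPM in the si-NC libraries. All si-circASH2 libraries lay higher (log2 fold change 0.36 ± 0.10, edgeR adjusted p = 0.00599). Leaving out si-circASH2 replicate 1 ended the NR1D1 call by a narrow margin (0.27, edgeR adjusted p = 0.0504). NR1D1 shares 263 of its 2772 exonic bases with THRA on the opposite strand, and the Huh7 log2 fold change of THRA was 0.02 ± 0.11. NR1D2 averaged 41.8 ± 1.48 CPM in si-circASH2 and 45.3 ± 0.46 CPM in si-NC libraries and did not pass (log2 fold change -0.12 ± 0.05, edgeR adjusted p = 0.116). DBP had 3.25, 3.38 and 2.37 CPM in the si-circASH2 libraries, against 3.35, 3.77 and 5.08 CPM in the si-NC libraries. Its groups overlapped and it did not pass (log2 fold change -0.44 ± 0.19, edgeR adjusted p = 0.0768), except without si-NC replicate 1 (-0.56, edgeR adjusted p = 0.0393). DBP shares 661 of its 6544 exonic bases with SPHK2 on the opposite strand, and SPHK2 fell in Huh7 (-0.26 ± 0.08, edgeR adjusted p = 0.0195). Whether counting used strand is not given in the sources used here, so reads of NR1D1, DBP and PER3 and of these neighbours cannot be told apart where they overlap.

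**Figure D2:**
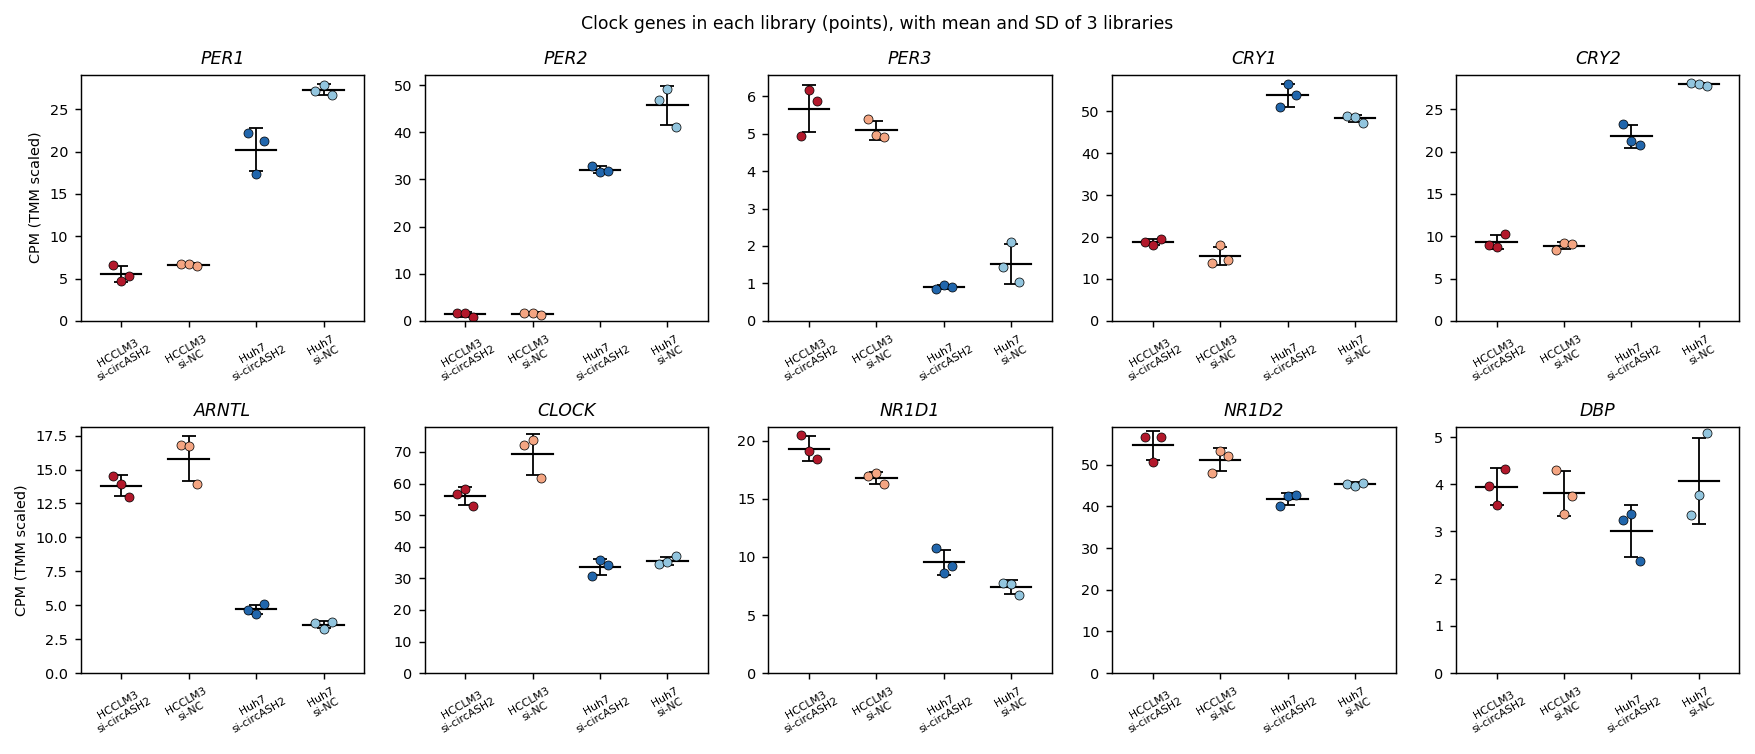
CPM of the 10 clock genes in each of the 12 libraries, 1 panel per gene, with points for libraries and bars for mean and SD of 3 libraries. In Huh7 the PER1, PER2, PER3 and CRY2 points of si-circASH2 lie below those of si-NC, and those of ARNTL and NR1D1 above them.

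In HCCLM3 only CRY1 and CLOCK were called after si-circASH2, 1 higher and 1 lower of 10, where 15.1% of all tested features rose and 15.5% fell. The median log2 fold change of the clock genes was 0.06, beside 0 over all tested features. Marker sums moved here too, to between 171 and 207 CPM in si-circASH2 against 143 to 164 CPM in si-NC libraries for leukocytes (CD3E at 0) and to between 48.9 and 53.3 CPM in si-circASH2 against 35.6 to 37.9 CPM in si-NC libraries for fibroblasts (mostly LUM). The endothelial sum was 19.6 to 21.8 CPM in si-circASH2 against 25.9 to 27.8 CPM in si-NC libraries (CDH5 at 0), and the hepatocyte sum 165 to 167 CPM in si-circASH2 against 155 to 157 CPM in si-NC libraries. Within the hepatocyte set APOB averaged higher (63.7 against 52 CPM) and HNF4A lower (91.4 against 94.9 CPM) in si-circASH2 libraries. The part of these markers was not tested. CLOCK had 56.7, 58.4 and 53.0 CPM in the si-circASH2 libraries, against 72.1, 73.7 and 61.7 CPM in the si-NC libraries. All si-circASH2 libraries of CLOCK lay lower, by 19% in the model (log2 fold change -0.30 ± 0.06, edgeR adjusted p = 0.000762). The CLOCK call was lost with limma on the deposited FPKM at each setting (adjusted p between 0.143 and 0.212), and its FPKM per CPM varied between 0.0854 and 0.117 over the 12 libraries. CRY1 had 18.8, 18.1 and 19.6 CPM in the si-circASH2 libraries, against 13.9, 18.0 and 14.5 CPM in the si-NC libraries. The groups of CRY1 only just failed to overlap (log2 fold change 0.29 ± 0.08, edgeR adjusted p = 0.00712), and without si-NC replicate 1 the call was lost (0.21, edgeR adjusted p = 0.0646).

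Of the other 8, PER1 had 6.58, 4.68 and 5.31 CPM in the HCCLM3 si-circASH2 libraries, against 6.73, 6.72 and 6.44 CPM in the si-NC libraries. The groups overlapped through 1 si-circASH2 library (log2 fold change -0.26 ± 0.12, edgeR adjusted p = 0.0992), and without that library, replicate 1, PER1 passed (-0.41, edgeR adjusted p = 0.0155). NR1D1 had 20.5, 19.1 and 18.4 CPM in the si-circASH2 libraries, against 17.0, 17.2 and 16.3 CPM in the si-NC libraries. All si-circASH2 libraries of NR1D1 lay higher without a call (0.20 ± 0.09, edgeR adjusted p = 0.0831), and with HCCLM3 fitted alone it passed (edgeR adjusted p = 0.0302). THRA, which overlaps NR1D1, rose in HCCLM3 (0.55 ± 0.12, edgeR adjusted p = 0.00117), and its part in the NR1D1 count was not tested.

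ARNTL had 14.5, 13.9 and 13.0 CPM in the HCCLM3 si-circASH2 libraries, against 16.8, 16.7 and 13.9 CPM in the si-NC libraries. Its groups overlapped, since the lowest si-NC library lay within the range of the si-circASH2 libraries (log2 fold change -0.19 ± 0.10, edgeR adjusted p = 0.143). PER2 was near the limit of what these libraries can resolve, with between 25 and 51 counts in si-circASH2 and between 37 and 50 counts in si-NC libraries. Its log2 fold change of -0.11 ± 0.22 (edgeR adjusted p = 0.779) does not show that PER2 kept its level. PER3, CRY2 and DBP had log2 fold changes between 0.05 and 0.16 and adjusted p of at least 0.581, with overlapping groups in each. NR1D2, at 54.7 ± 3.48 CPM in si-circASH2 and 51.2 ± 2.72 CPM in si-NC libraries, did not pass either (0.10 ± 0.05, edgeR adjusted p = 0.191), except without si-circASH2 replicate 2 (edgeR adjusted p = 0.0453).

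The difference between the lines was tested directly, as the knockdown effect in HCCLM3 minus that in Huh7. It passed for 3 of 10 clock genes, where 20.9% of all tested features passed. For CRY2 the effects were 0.07 ± 0.09 in HCCLM3 and -0.36 ± 0.07 in Huh7, a difference of 0.43 ± 0.11 (edgeR adjusted p = 0.00708) that passed under all 20 alternatives. For ARNTL the effects were -0.19 ± 0.10 in HCCLM3 and 0.39 ± 0.12 in Huh7, a difference of -0.58 ± 0.16 (edgeR adjusted p = 0.00896). The ARNTL difference was lost with limma on log2(FPKM + 0.1), at adjusted p = 0.0534 and, over all features above 0, 0.0675. For PER3 the effects were 0.16 ± 0.18 in HCCLM3 and -0.76 ± 0.24 in Huh7, a difference of 0.91 ± 0.30 (edgeR adjusted p = 0.0317) that was lost under 10 of 20 alternatives. For PER2 the difference did not pass (0.40 ± 0.24, edgeR adjusted p = 0.26), nor for PER1 (0.17 ± 0.15, edgeR adjusted p = 0.507), so the falls of PER1 and PER2 in Huh7 are not shown to differ from their values in HCCLM3. The PER2 difference passed without HCCLM3 si-circASH2 replicate 3 (0.66, edgeR adjusted p = 0.0266) and with limma on log2(FPKM + 1) (0.43, adjusted p = 0.00768). The CLOCK difference (-0.22 ± 0.09, edgeR adjusted p = 0.104) passed when HCCLM3 si-NC replicate 3 (0.0179) was left out, or replicate 1 of Huh7 si-circASH2 (0.0347). The NR1D2 difference (0.21 ± 0.08, edgeR adjusted p = 0.0518) passed with no filter on low counts (0.0399) and without HCCLM3 si-NC replicate 2 (0.0441) or si-circASH2 replicate 2 (0.0109).

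**Figure D3:**
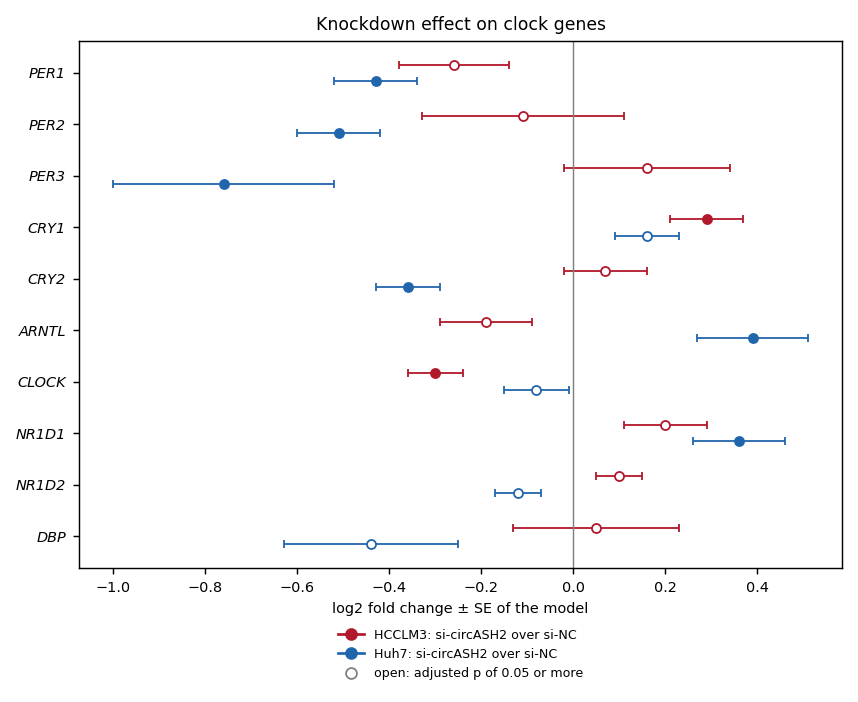
Log2 fold change of si-circASH2 over si-NC for the 10 clock genes, HCCLM3 above Huh7 in each row, with the standard error of the model as bars and open points where the adjusted p was 0.05 or more. The filled points are CRY1 and CLOCK in HCCLM3 and PER1, PER2, PER3, CRY2, ARNTL and NR1D1 in Huh7.

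The regulatory letters beside the starts of these genes are shown because the PER genes and CRY2 moved one way in Huh7 and ARNTL and NR1D1 the other. RefSeq promoters (GRCh38.p14, 250 bases before to 50 after a start) were matched for all 10 genes at 15 starts, and 4 motifs were searched on both strands. They were the E-box CACGTG, the E-prime box CACGTT, the D-box TTATGTAA or TTACGTAA, and the element of ROR and REV-ERB receptors TAGGTCA or AAGGTCA. Each window runs 5′ to 3′ on the strand of its gene with 20 bases beside the outermost matches (fewer at the end of the promoter), and capitals mark a match, read on either strand.
PER1, chr17:8152522-8152597, minus strand: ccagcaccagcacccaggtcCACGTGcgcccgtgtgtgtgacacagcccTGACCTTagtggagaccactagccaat
PER2, chr2:238288586-238288827, minus strand: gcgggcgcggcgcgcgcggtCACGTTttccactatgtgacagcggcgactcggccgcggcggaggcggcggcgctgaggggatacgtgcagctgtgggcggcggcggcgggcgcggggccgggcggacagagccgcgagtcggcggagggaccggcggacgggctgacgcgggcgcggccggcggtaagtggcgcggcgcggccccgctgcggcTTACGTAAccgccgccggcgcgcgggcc
PER3, chr1:7784094-7784141, plus strand: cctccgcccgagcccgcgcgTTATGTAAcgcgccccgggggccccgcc
CRY2, chr11:45847267-45847436, plus strand: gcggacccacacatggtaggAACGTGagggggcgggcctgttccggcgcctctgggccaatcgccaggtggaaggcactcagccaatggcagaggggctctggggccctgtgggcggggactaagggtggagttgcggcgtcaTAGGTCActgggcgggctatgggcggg
ARNTL, chr11:13277800-13277839, plus strand: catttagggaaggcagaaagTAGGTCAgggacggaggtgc
NR1D1, chr17:40100732-40100777, minus strand: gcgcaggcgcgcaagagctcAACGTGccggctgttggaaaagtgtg
NR1D2, chr3:23945907-23946041, plus strand: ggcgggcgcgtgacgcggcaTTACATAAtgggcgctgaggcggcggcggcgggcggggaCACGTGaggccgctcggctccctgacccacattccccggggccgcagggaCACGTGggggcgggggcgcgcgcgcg

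The 4 genes that fell in Huh7 did not share 1 motif in these windows. PER1 held an E-box at position -173 and a ROR element, PER2 an E-prime box at -197 and a D-box at -3, PER3 a D-box at -177, and CRY2 an E-prime box at -188 with ROR elements at both of its starts. Of the genes that rose, ARNTL held a ROR element at position 31 and NR1D1 an E-prime box at -168. Across the clock genes the D-box was found at 3 of 15 starts, beside 1.01% of 35116 RefSeq promoters, and the ROR element at 4 of 15, beside 5.68%. The E-prime box was found at 5 of 15 starts (5.34% of all promoters) and the E-box at 2 of 15, PER1 and NR1D2 (7.26% of all promoters). Besides PER2, CRY2 and NR1D1, the E-prime box lay at CLOCK (-187) and CRY1 (-89). These are the genes called in HCCLM3, and their windows are not printed above. DBP held none of the 4 motifs in its window, which says only that these letters are not there.

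A further 20 genes of the clock were looked at as a list, of which 19 were in the table and 17 were tested. In Huh7 5 of the 17 fell, 4 rose and 8 did not pass. In HCCLM3 3 fell, 2 rose and 12 did not pass. Over all tested features 15.1% fell and 16.3% rose in Huh7, and 15.5% fell and 15.1% rose in HCCLM3, so the HCCLM3 count lies near the background. Their median log2 fold changes were 0.01 in HCCLM3 and -0.06 in Huh7, beside 0 and 0.01 over all tested features.

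ARNTL2, the paralogue of ARNTL that can also pair with CLOCK, fell in both lines. In HCCLM3 it fell by more than any of the 10 clock genes. In Huh7 the estimate for PER3 came near it (-0.76 ± 0.24), and no test compared them. ARNTL2 had 19.6, 16.7 and 16 CPM in the HCCLM3 si-circASH2 libraries, against 37.7, 37.3 and 31.7 CPM in the si-NC libraries. In Huh7 it had 12.1, 11.6 and 12.3 CPM in the si-circASH2 libraries, against 23.9, 22.1 and 21.3 CPM in the si-NC libraries. The groups lay well apart in both lines, with log2 fold changes of -1.03 ± 0.08 in HCCLM3 (edgeR adjusted p = 9.15e-10) and -0.90 ± 0.09 in Huh7 (edgeR adjusted p = 1.98e-08, and 0.0538 with limma on log2(FPKM + 0.1) over all features above 0). TEF, a D-box factor related to DBP, averaged 7.16 ± 0.535 CPM in Huh7 si-circASH2 and 10.4 ± 0.437 CPM in Huh7 si-NC libraries. TEF fell in Huh7 (-0.54 ± 0.11, edgeR adjusted p = 0.000511) and did not pass in HCCLM3 (-0.20 ± 0.12, edgeR adjusted p = 0.237), and the difference between the lines did not pass (0.34 ± 0.16, edgeR adjusted p = 0.153).

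The 3′ UTRs of ARNTL2 and TEF both hold TTATACCA. Its parts TTATACC and TATACCA, and TCGGAGAA, came from an earlier search of these same data, so their presence is a description and no independent evidence. The 3 sites below are from GENCODE 29 (GRCh38), with the match in capitals and 10 bases on each side.
ARNTL2, chr12:27424214-27424241, plus strand: agaccaaagtTTATACCAtaaggatatt
TEF, chr22:41396100-41396127, plus strand: ctcagcttcaTTATACCAtggcctgcgc
NR1D2, chr3:23977480-23977506, plus strand: tttatatgtgTATACCAtatgtggaga

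Among the 10 clock genes TTATACC was in 0 of the 3′ UTRs and TATACCA in 1, that of NR1D2, which was not called in either line. TCGGAGAA was in none of them. Among 14033 tested genes with a 3′ UTR 8.97% held TTATACC, 9.97% TATACCA and 0.70% TCGGAGAA. The genes that fell in Huh7, PER1, PER2, PER3 and CRY2, carried none of the 3 sequences in their annotated 3′ UTRs. At these shares most genes carry none of them, so nothing is read from their absence. Of the 17 other clock genes searched, 3 held TTATACC (ARNTL2, TEF and CIART), 3 held TATACCA (ARNTL2, TEF and RORA) and 1 held TCGGAGAA (CSNK1E). CIART, RORA and CSNK1E were not called in either line. CIART had at most 9 counts in a Huh7 library and at most 34 in an HCCLM3 library, too few to show that it kept its level. RORA had -0.22 ± 0.18 in HCCLM3 (edgeR adjusted p = 0.412) and -0.30 ± 0.13 in Huh7 (edgeR adjusted p = 0.0929). CSNK1E had 0.12 ± 0.05 in HCCLM3 (edgeR adjusted p = 0.0742) and 0.11 ± 0.04 in Huh7 (edgeR adjusted p = 0.0683).

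TIMELESS, a fork protection factor with a debated role in the mammalian clock, averaged 127 ± 7.55 CPM in HCCLM3 si-circASH2 and 126 ± 2.72 CPM in HCCLM3 si-NC libraries, and 108 ± 3.52 CPM in Huh7 si-circASH2 and 144 ± 3.78 CPM in Huh7 si-NC libraries. It fell in Huh7 (-0.42 ± 0.04, edgeR adjusted p = 7.89e-08), and the difference between the lines passed (0.43 ± 0.06, edgeR adjusted p = 1.44e-05). NPAS2, which can stand in for CLOCK, rose slightly in Huh7 (0.18 ± 0.05, edgeR adjusted p = 0.00745, and 0.0557 without Huh7 si-NC replicate 2). NPAS2 was unlike its value in HCCLM3 (-0.08 ± 0.05), with a difference of -0.26 ± 0.07 (edgeR adjusted p = 0.00819) that was lost with limma on log2(FPKM + 0.1) (0.054). HLF, a D-box factor of liver, rose in Huh7 to 43.1 ± 2.43 CPM in si-circASH2 libraries, against 27.4 ± 1.75 CPM in si-NC libraries (0.65 ± 0.15, edgeR adjusted p = 0.0075, and 0.663 with DESeq2). In HCCLM3 HLF had between 0 and 13 counts per library. TEF and HLF, both D-box activators, thus had opposite signs in Huh7.

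FBXW11, a ubiquitin ligase gene for PER proteins, fell in both lines. It fell by 0.37 on the log2 scale in HCCLM3 (edgeR adjusted p = 5.28e-06) and by 0.20 in Huh7 (edgeR adjusted p = 0.00273). Its paralogue BTRC fell in Huh7 by 0.27 (edgeR adjusted p = 0.00677) and had -0.07 ± 0.07 in HCCLM3. The BTRC difference between the lines did not pass (0.21 ± 0.11, edgeR adjusted p = 0.185). Further called genes were named after their values were seen. BHLHE41, an E-box repressor, rose in HCCLM3 (0.64 ± 0.22, edgeR adjusted p = 0.0316) and in Huh7 (0.63 ± 0.21, edgeR adjusted p = 0.0263). In Huh7 the BHLHE41 groups overlapped, with 2.64, 3.91 and 3.37 CPM in si-circASH2 against 1.87, 1.87 and 2.66 CPM in si-NC libraries. Its paralogue BHLHE40 rose in Huh7 (0.46 ± 0.13, edgeR adjusted p = 0.0263). The deubiquitinase gene USP2 fell in HCCLM3 by 0.65 (edgeR adjusted p = 0.0223) and had -0.10 ± 0.15 in Huh7. The USP2 difference between the lines did not pass (-0.54 ± 0.26, edgeR adjusted p = 0.153). These calls were lost under 7 of 21 alternatives for BHLHE41 in each line, and under 6 of 21 for BHLHE40 and for USP2. Also chosen after their values were seen, the kinase genes CSNK1D and CSNK1E, which mark PER proteins for degradation, were not called in either line, with log2 fold changes between -0.06 and 0.12.

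Of 14 tested output genes of the liver clock 3 fell and 3 rose in HCCLM3, and 2 fell and 1 rose in Huh7. Beside the same shares over all tested features, the Huh7 count is below the background and the HCCLM3 count somewhat above it, and nothing is read from either. WEE1, a kinase that holds back mitosis and an E-box target, fell in both lines, by 0.50 in HCCLM3 (edgeR adjusted p = 4.27e-06) and by 0.78 in Huh7 (edgeR adjusted p = 1.24e-09) on the log2 scale. CDKN1A, the cell cycle inhibitor p21 and a target of REV-ERB in mouse liver, fell to 73.8 ± 5.52 CPM in HCCLM3 si-circASH2, against 126 ± 2.53 CPM in HCCLM3 si-NC libraries (edgeR adjusted p = 5.09e-11). In Huh7 CDKN1A rose to 24.4 ± 1.16 CPM in si-circASH2, against 14.9 ± 0.858 CPM in si-NC libraries (edgeR adjusted p = 8.95e-09), and the lines differed by -1.48 ± 0.08 (edgeR adjusted p = 7.47e-12). NAMPT, POR and PPARA, genes of NAD synthesis, of electron supply to cytochromes P450 and of fatty acid oxidation, rose in HCCLM3 by between 0.23 and 0.30, and none of them was called in Huh7. The difference between the lines passed for NAMPT (0.17, edgeR adjusted p = 0.00779) and POR (0.26, edgeR adjusted p = 0.00102) and did not pass for PPARA (0.14 ± 0.10, edgeR adjusted p = 0.354), which had 0.16 ± 0.07 in Huh7. The PPARA call was lost with limma on FPKM (adjusted p between 0.0774 and 0.116). Named after their values were seen, KLF10 fell in HCCLM3 by 0.22 (edgeR adjusted p = 0.004) and APOC3 in Huh7 by 0.59 (edgeR adjusted p = 0.00616, and 0.252 with limma on log2(FPKM + 0.1)). For APOC3 the difference between the lines did not pass (edgeR adjusted p = 0.142), and an HCCLM3 library held at most 4 counts.

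PER1 is also a direct target of the glucocorticoid receptor and of CREB, so 12 such genes were counted beside it. In HCCLM3 3 fell and 1 rose, and in Huh7 3 fell and 2 rose, counts that lie near the shares over all tested features. SGK1, a glucocorticoid-induced kinase, and DUSP1, a MAP kinase phosphatase, fell in both lines, SGK1 by 0.26 in HCCLM3 (edgeR adjusted p = 0.0266) and by 0.69 in Huh7 (edgeR adjusted p = 9.79e-08), and DUSP1 by 0.50 in HCCLM3 (edgeR adjusted p = 4.63e-05) and by 0.34 in Huh7 (edgeR adjusted p = 0.00126). The SGK1 call in HCCLM3 was lost without si-NC replicate 2 (0.103), si-circASH2 replicate 2 (0.127) or si-circASH2 replicate 3 (0.107), as edgeR adjusted p. TSC22D3, the glucocorticoid-induced leucine zipper gene, fell in Huh7 by 0.59 (edgeR adjusted p = 1.22e-06) and had 0.15 ± 0.08 in HCCLM3 (edgeR adjusted p = 0.16). The nuclear receptor NR4A1 fell in HCCLM3 by 0.87 (edgeR adjusted p = 1.04e-07) and had -0.11 ± 0.08 in Huh7 (edgeR adjusted p = 0.35). FOS rose in Huh7 (0.54 ± 0.15, edgeR adjusted p = 0.00685, and 0.0526 without Huh7 si-NC replicate 1). In HCCLM3 FOS had -0.01 ± 0.15, and the difference between the lines did not pass (-0.54 ± 0.21, edgeR adjusted p = 0.0749). Named after their values were seen, FKBP5 rose in HCCLM3 (0.15 ± 0.05, edgeR adjusted p = 0.0401) and NR4A2 in Huh7 (0.29 ± 0.11, edgeR adjusted p = 0.0414). Each of these calls was lost under 8 of 21 alternatives. The difference between the lines passed neither for FKBP5 (edgeR adjusted p = 0.211) nor for NR4A2 (edgeR adjusted p = 0.74).

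**Figure D4:**
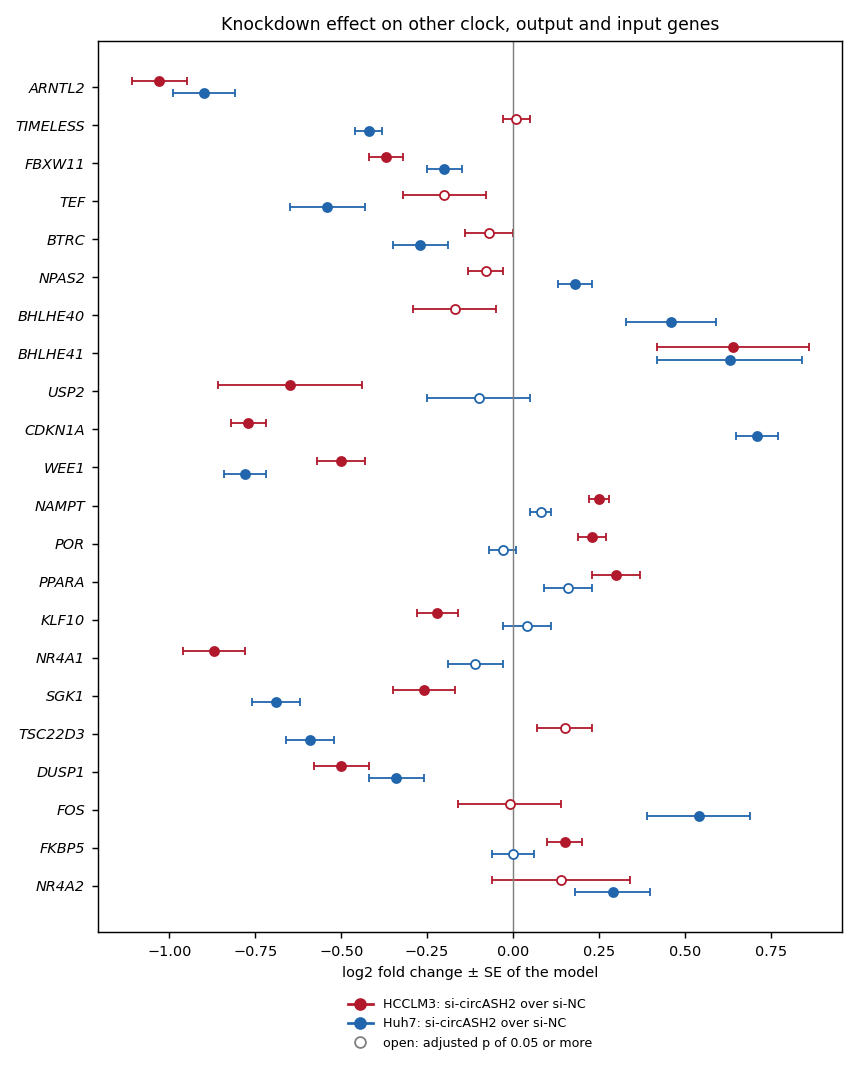
Log2 fold change of si-circASH2 over si-NC for named genes outside the 10, HCCLM3 above Huh7 in each row, with standard errors of the model and open points where the adjusted p was 0.05 or more. From the top come other clock genes (ARNTL2 to USP2), outputs (CDKN1A to KLF10) and inputs (NR4A1 to NR4A2), without HLF and APOC3, and ARNTL2 lies near -1 in both lines.

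The pattern of each clock gene over the 12 libraries was set beside those of the other tested clock genes, after the mean of its line was taken off. The closest gene to ARNTL was NPAS2 (r = 0.86), to PER1 ARNTL2 (0.84), to CRY2 TIMELESS (0.84), to CLOCK FBXW11 (0.84), to NR1D1 CSNK1E (0.81) and to PER3 TIMELESS (0.80). For NR1D2, DBP, PER2 and CRY1 the highest r lay between 0.60 and 0.66. Over all genes with a symbol and at least 5 CPM the closest to PER2 were MCPH1 (0.947), FAM133B (0.895) and PABPC1 (0.893). They were picked as the highest r of that whole set. MCPH1 (edgeR adjusted p = 0.202 in Huh7, 0.693 in HCCLM3) and PABPC1 (0.0877 and 0.748) were called in neither knockdown. FAM133B was called only in Huh7 (-0.17 ± 0.06, edgeR adjusted p = 0.0458). These r describe 6 libraries of each line, which share the knockdown contrast and a similar depth, and in HCCLM3 the PER2 values rest on 25 to 51 counts.

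In the reference annotation GENCODE 29 (GRCh38) the clock genes called after si-circASH2 in either line lie on chromosome 17 (PER1, 8140472 to 8156506, and NR1D1, 40092787 to 40100725), chromosome 2 (PER2, 238244038 to 238290102), chromosome 1 (PER3, 7784320 to 7845177), chromosome 11 (CRY2, 45847118 to 45883248, and ARNTL, 13276652 to 13387266), chromosome 12 (CRY1, 106991364 to 107093829) and chromosome 4 (CLOCK, 55427903 to 55547138).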

How the data were processed

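RNA libraries were made from column-purified RNA with a SMARTer mRNA kit, per the labels' protocols. The tests used the deposited read counts of each feature in each library, as named per the file headers, and the deposited FPKM of the same features, scaled by the authors for length and depth, served for levels between genes and as an alternative. Aligner, counting tool, annotation and strand: not given in the sources used here. Builds named without a role in the submitters' processing notes were hg38, GRCm38 and mm10. Counts were fitted with edgeR 4.0.16 in R 4.3.3 (filterByExpr with a minimum count of 10, TMM, 1 coefficient per group over 12 libraries, robust quasi-likelihood F test, Benjamini-Hochberg over 16946 features, threshold 0.05). Standard errors are the absolute log2 fold change over the square root of F. Alternatives used DESeq2 1.42.0 and limma 3.58.1, and the tests were tried on simulated data. No pair of libraries agreed within sampling noise (chi-square per degree of freedom 3.76 to 8.06). The 10 genes, the lists and the sequences searched in 3′ UTRs were chosen with earlier results of these data known. The rule for named genes took all 10 and, from the lists of other clock genes, outputs and inputs, the 8, 5 and 5 with the smallest p over both knockdowns. The result of 1 of these genes is not reported here, though it stays in the counts. Any further called gene is said to have been named after its values were seen.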

Additional observations from a re-analysis of the deposited data

Results flagged for a closer look

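The knockdown effect differed between the lines by the edgeR interaction test, given as HCCLM3 minus Huh7 on the log2 scale, for 3 of the 10 clock genes: PER3 by 0.91, CRY2 by 0.43 and ARNTL by -0.58. Among the other genes of the clock it differed for TIMELESS by 0.43, for NPAS2 by -0.26 and for BHLHE40 by -0.64. Among the outputs it differed for CDKN1A by -1.48, for WEE1 by 0.28, for NAMPT by 0.17, for POR by 0.26 and for KLF10 by -0.26. Among the targets of glucocorticoid and CREB signalling it differed for NR4A1 by -0.76, for SGK1 by 0.43 and for TSC22D3 by 0.74. Of these differences, those of PER3, BHLHE40 and KLF10 were each lost under 10 of 20 alternatives and that of WEE1 under 8. Groups held 3 libraries each, too few to look for single outlying libraries.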

How the results depend on the processing

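In Huh7 the calls of PER1 and CRY2 held under all 21 alternatives, and in the comparison of the si-NC libraries all 9 calls held under all 20. The number of clock genes called was 6 in Huh7 (4 to 7 when 1 library was left out), 2 in HCCLM3 (1 to 3), 3 for the difference between the lines (2 to 3) and 9 between si-NC libraries (9 to 9), and of the other clock genes 9 (6 to 9) in Huh7 and 5 (3 to 6) in HCCLM3. With limma on log2(FPKM + 0.1) the number of clock genes fell to 1 in HCCLM3 and 1 for the difference, and with all features above 0 to 3 in Huh7, 1 in HCCLM3 and 1 for the difference. With limma on log2(FPKM + 1) it was 1 in HCCLM3, and in HCCLM3 other clock genes called were 3 on log2(FPKM + 0.1) and 3 on log2(FPKM + 1). The cause was not tested. Every sign change was of a value without a call in the fit reported. On FPKM with limma DBP in HCCLM3 went to -0.08 and -0.06, DBP between si-NC libraries to 0.21 and 0.15, TIMELESS in HCCLM3 to -0.01, the USP2 difference to 0.04 and the HLF difference to -0.40 and, on log2(FPKM + 1), to -0.51 with a call (adjusted p = 0.00137). With 1 library left out the range in HCCLM3 was -0.29 to 0.15 for PER2, -0.01 to 0.12 for CRY2, -0.03 to 0.15 for DBP, -0.03 to 0.05 for TIMELESS, -0.06 to 0.09 for FOS and -0.08 to 0.36 for NR4A2. It was -0.04 to 0.09 for KLF10 in Huh7, -0.22 to 0.10 for DBP between si-NC libraries, -0.37 to 0.07 for the NR4A2 difference and -0.33 to 4.97 for the HLF difference, whose HCCLM3 counts are near 0. Libraries with the same replicate number did not deviate together (r between -0.034 and 0.041), so the numbers were not taken as pairs. With a replicate block the numbers of clock genes called were 6 in Huh7, 2 in HCCLM3, 4 for the difference (CLOCK was added, adjusted p = 0.0458) and 9 between si-NC libraries. FKBP5 in HCCLM3 was lost under the block (0.0556). Depth limits PER3 in Huh7 and PER2 in HCCLM3 most, each with under 64 counts per library.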
